A study of Mus musculus with 4 samples.

Results

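The Schlafen genes are a family of 7 mouse genes on the array (Slfn1, Slfn2, Slfn3, Slfn4, Slfn5, Slfn8 and Slfn9), read by 11 of its 45101 probe sets and making up 7 of the 18193 genes that probe sets with a single gene symbol name. The members were chosen by their symbols, and the family was proposed after its difference between the genotypes of this series had been seen. That difference is therefore given here as a description, without a test. The tissue was aorta at 6 weeks of age, from mice with Smad4 deleted in smooth muscle (Smad4-KO) and from wild-type littermates (WT). Each genotype had 2 Affymetrix arrays, replicate 1 and replicate 2, hybridised with RNA (400 ng) of 3 to 5 pooled vessels, so an array stands for a pool and not for a mouse. The sources used here do not give the driver of the deletion, and Smad4 was not measured by cell type.

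Schlafen proteins take their name from the German word for sleep, because the founding members held back the growth of T cells when expressed in them. Short members (Slfn1, Slfn2) hold little beyond the Schlafen core domain, intermediate members (Slfn3, Slfn4) carry an added linker region, and long members (Slfn5, Slfn8, Slfn9) end in a helicase-like domain. Many members are induced by type I interferon, chiefly in lymphocytes and in cells of the monocyte lineage, and several Schlafen proteins bind or cut transfer RNA and so limit protein synthesis. In the wall of a healthy artery such immune cells are a small part of the tissue.

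On mouse chromosome 11 the protein-coding members follow each other in the order Slfn5, Slfn9, Slfn8, Slfn2, Slfn1, Slfn4 and Slfn3, with Slfn14, which was not analysed here, at the end. All 7 members have a RefSeq promoter window (assembly GRCm38.p6) of 300 bases, from 250 before to 50 after the annotated start, and Slfn8 has a further window that overlaps the other. The windows fell into groups by the motifs they held, searched on both strands. The core of the interferon-stimulated response element, GAAANNGAA, which interferon regulatory factors bind, lay in the windows of Slfn5, Slfn8 and Slfn9. The core of sites for ETS factors such as PU.1, AGGAAGT, lay in those of Slfn1, Slfn2, Slfn3 and Slfn4. Among all 32851 windows of 300 bases in the table, 8.56% held the former and 9.35% the latter. The stretches of 60 bases around these matches are shown because they hold the letters that group the members by sequence, with both motifs in capitals where they occur. The log2 differences between genotypes given below overlapped between these groups. They were 5.98, 3.34 and 5.66 for Slfn1, Slfn2 and Slfn4, with Slfn3 too dim for the fit. For Slfn5, Slfn8 and Slfn9 they were 2.20, 4.05 and 1.77. Whether the signals follow the groups was not tested.
Slfn5, chr11:82951921-82951980, plus strand: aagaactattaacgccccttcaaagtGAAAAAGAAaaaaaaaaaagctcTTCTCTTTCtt
Slfn9, chr11:82991841-82991900, minus strand: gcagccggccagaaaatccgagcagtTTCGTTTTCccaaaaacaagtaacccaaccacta
Slfn8, chr11:83020824-83020883, minus strand: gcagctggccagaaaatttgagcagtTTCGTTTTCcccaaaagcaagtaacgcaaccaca
Slfn2, chr11:83065030-83065089, plus strand: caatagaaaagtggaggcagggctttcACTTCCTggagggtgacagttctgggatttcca
Slfn1, chr11:83116719-83116778, plus strand: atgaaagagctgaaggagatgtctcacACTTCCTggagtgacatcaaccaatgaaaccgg
Slfn4, chr11:83175086-83175145, plus strand: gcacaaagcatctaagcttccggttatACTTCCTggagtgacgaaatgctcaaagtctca
Slfn3, chr11:83191244-83191303, plus strand: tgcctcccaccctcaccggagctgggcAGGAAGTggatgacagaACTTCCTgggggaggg

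Slfn1, Slfn2 and Slfn4 shared the run ACTTCCTGGAG, which 24 of the 32851 windows (0.0731%) held on either strand. The run was picked by a search for runs that members share, and the 24 windows include theirs, so nothing is read from its rarity. It began at position -74 from the start of Slfn1, -55 from that of Slfn2 and -73 from that of Slfn4. In Slfn1 and Slfn4 the shared run went on to 15 bases, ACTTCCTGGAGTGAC. The windows of Slfn8 and Slfn9 were 80.8% identical in a global alignment, against 46.8% to 53.0% for the other 20 pairs of members. In both the interferon element was read as TTCGTTTTC close to the start (-47 in Slfn8, -44 in Slfn9). Counted from the start of the further Slfn8 window, the same match lay at -135. An AP-1 element (TGANTCA, in 7.81% of all windows) was found in Slfn4 alone. A STAT element of the GAS type (TTCNNNGAA, in 8.30%) and a Smad box (GTCTAGAC, in 0.213%) were found in no member's window. The letters of the motifs were chosen with these sequences in view, and a match is not evidence that a factor binds.

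The arrays were scaled to the same trimmed mean, their median signals lay between 111 and 137, and with so few arrays every value is imprecise. Smad4 itself read 4394 and 3819 in WT against 2676 and 3580 in Smad4-KO, which on the log2 scale differed by -0.40 ± 0.32 (here and below ± is limma's standard error, with 2 arrays a genotype). For Dap, an RNA added before labelling, the 3' probe set divided by the 5' one was high on WT replicate 1 (10.02) and Smad4-KO replicate 2 (14.1) and low on WT replicate 2 (2.96) and Smad4-KO replicate 1 (3.62). Xist, which is transcribed from the inactive X chromosome, read 15192 in WT replicate 1 and 6223 in Smad4-KO replicate 1, against 90.0 and 135 for replicate 2 of the same genotypes. Each measure therefore splits both genotypes. Probe sets with a mean signal below 64 differed between replicates by a median of 0.99 on the log2 scale in either genotype, against 0.39 (WT) and 0.48 (Smad4-KO) for brighter ones, so a fold against a group with a mean below 64 was computed with lower signals raised to 64 and is written "at least".

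Schlafen transcripts were higher in the Smad4-KO aortas for 6 of the 7 members, and Slfn3 stayed near the bottom of the scale in both genotypes. Of the 6 members bright enough for the fit across 13645 genes, all 6 had both Smad4-KO arrays above both WT arrays. That pattern was shown by 25.9% of all genes tested. The filter used the mean of all 4 arrays. Slfn1 passed it only through its Smad4-KO arrays (230 and 891, against 7.87 and 6.51 in WT). Its place in this count and in the next was thus tied to being high there. Slfn1, Slfn2, Slfn4 and Slfn8 were among the genes called higher at an adjusted p under 0.05 in limma (4 of 6 members tested; 4.92% of all genes tested were called higher and 1.39% lower). The calls were lost, for these members as for all genes, with no filter on signal, with every probe set fitted, with a block of arrays of like Dap ratio and without WT replicate 2, and 1 member was called without WT replicate 1. Nothing is read from these counts, since the contrast is the value the family was chosen on. The median log2 difference of the 6 was 3.69, beside -0.01 for all genes tested. In RNA of whole vessels, more cells of a type and more RNA per cell cannot be told apart.

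Of the short members, Slfn2, which T cells and monocytes need to stay quiescent, read 367 and 268 in WT against 1903 and 5281 in Smad4-KO. Every Smad4-KO value was above every WT value, and the means differed 10.1-fold (log2 difference 3.34 ± 0.55, 95% interval 1.97 to 4.71). Slfn1, which slows the growth of T cells when overexpressed, was at the bottom of the scale in WT, with signals of 7.87 and 6.51, and read 230 and 891 in Smad4-KO. On the log2 scale this was a difference of 5.98 ± 0.66, but the WT signals lie in the noisy range, and the fold was at least 7.07. With signals under 64 raised to 64, Slfn1 was no longer among the genes called. A second Slfn1 probe set gave 22.6 and 5.95 in WT against 10.7 and 4.35 in Smad4-KO. It stayed in the noisy range on all arrays, its genotypes overlapped, and it did not show the difference of the brighter probe set.

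Of the intermediate members, Slfn4, a gene of activated macrophages and other myeloid cells, spanned the widest range. It read 65.7 and 386 in WT against 4228 and 15453 in Smad4-KO, a 50.7-fold difference of the means (5.66 ± 0.999, 95% interval 3.16 to 8.17). The WT arrays themselves stood 5.87-fold apart, more than for any other member tested, and the Smad4-KO arrays 3.66-fold. Slfn3, which in the rodent gut is tied to the maturation of epithelial cells, read 6.11 and 13.0 in WT against 6.21 and 12.1 in Smad4-KO. Its genotypes overlapped fully, and both lie in the noisy range, so no level can be given. A probe set annotated to both Slfn4 and Slfn3, and for that reason no member, read 2.26 and 2.95 in WT against 366 and 356 in Smad4-KO. Unlike the Slfn4 probe set, it was nearly level between the Smad4-KO arrays, and which of its genes it reported cannot be said.

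The long members were higher by smaller factors, with the exception of Slfn8. Slfn8, which is induced in activated T cells and macrophages, read 86.0 and 138 in WT against 991 and 3274 in Smad4-KO, a 16.5-fold difference (4.05 ± 0.63). Slfn5, a nuclear protein that in human cells acts on interferon-induced transcription, read 189 and 218 in WT against 630 and 1390 in Smad4-KO. That difference of 4.60-fold (2.20 ± 0.45) lay outside the called genes, as did the one of Slfn9. Slfn9, a close relative and chromosomal neighbour of Slfn8, read 76.9 and 113 in WT against 244 and 414 in Smad4-KO, 3.41-fold apart (1.77 ± 0.40). The WT arrays of Slfn5 differed by 1.15-fold, so most of its spread came from the Smad4-KO arrays.

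**Figure D1:**
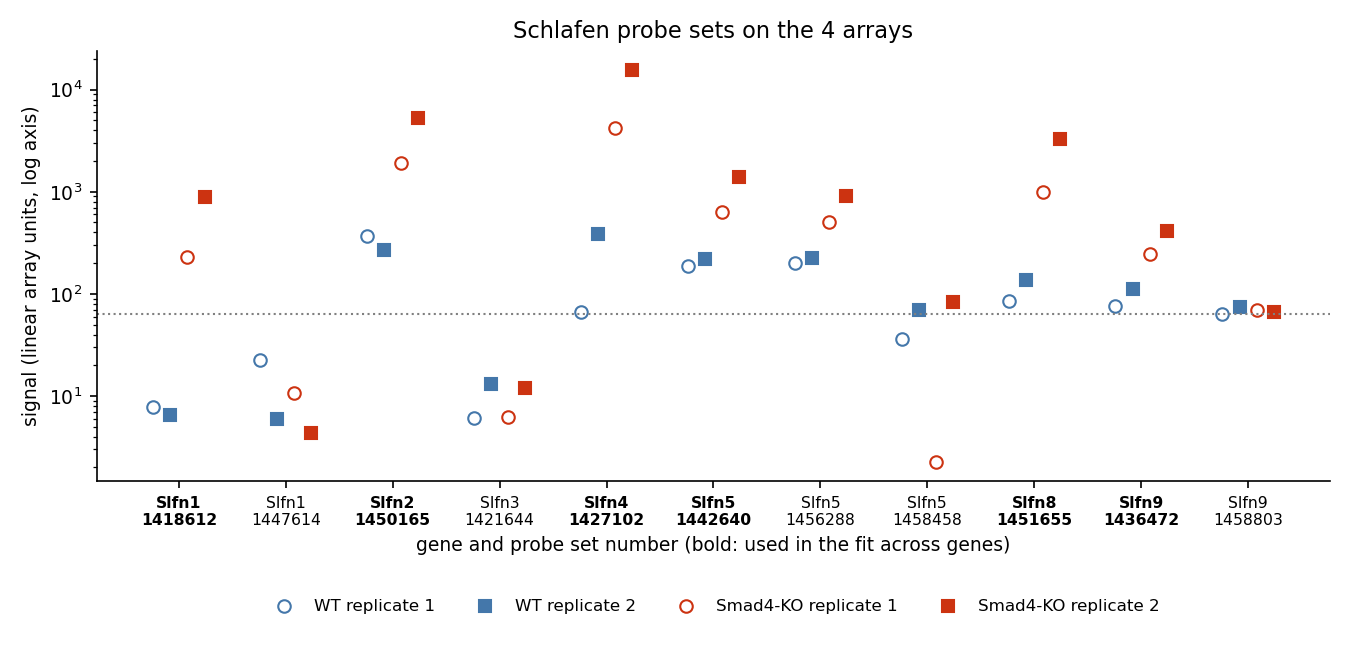
Signal of each of the 11 Schlafen probe sets (log axis, linear array units) on the 2 WT arrays (blue) and the 2 Smad4-KO arrays (red); circles are replicate 1, squares replicate 2, and the dotted line marks a signal of 64. In the 6 probe sets used in the fit across genes both red points lie above both blue points, and replicate 2 of Smad4-KO is the highest; the Slfn3 probe set lies below 64 on all arrays.

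Probe sets of a gene did not always read alike. A further Slfn5 probe set read 202 and 225 in WT against 502 and 902 in Smad4-KO (1.66 ± 0.46 in a fit of every probe set), near the values of the brighter one. The remaining Slfn5 probe set gave 35.8 and 69.3 in WT against 2.28 and 83.5 in Smad4-KO, with a spread that covered the whole range. The other Slfn9 probe set was flat, with 63.98 and 74.5 in WT against 70.1 and 66.5 in Smad4-KO, a difference of -0.02 ± 0.36. Of the 11 probe sets, 7 had both Smad4-KO arrays above both WT arrays, and the other 4 all lay at or below a signal of 83.5 on all arrays. Signals of close relatives such as Slfn8 and Slfn9 cannot be separated beyond what the probe design does, so their separate values are uncertain to that extent. With the probe sets of a gene averaged, Slfn5 had a difference of 0.67 and Slfn9 one of 0.88, and Slfn1 fell below the filter on signal.

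**Figure D2:**
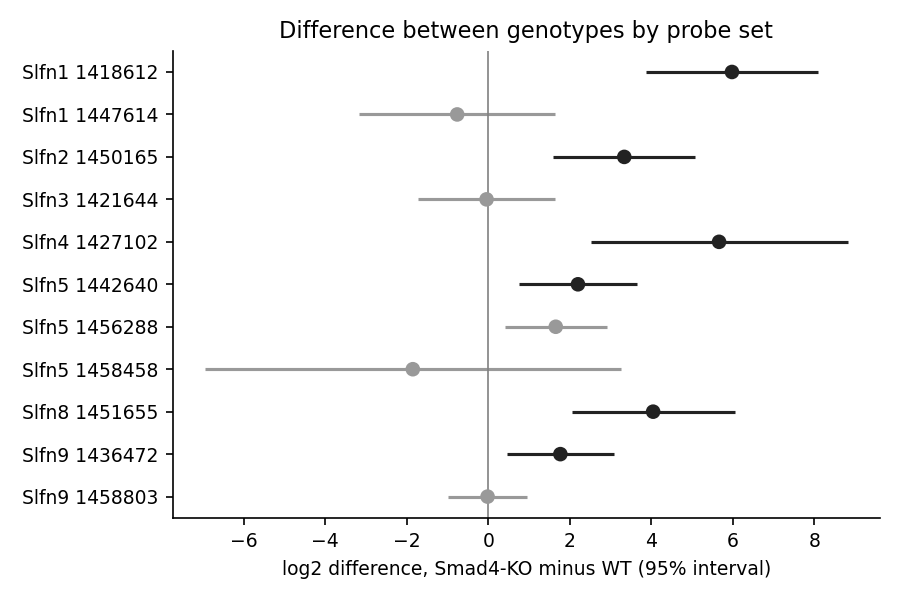
Log2 difference, Smad4-KO minus WT, of each Schlafen probe set with its 95% interval from a limma fit of every probe set; black marks the probe sets used in the fit across genes and grey the other 5. The black points run from 1.77 (Slfn9) to 5.98 (Slfn1), while the grey points of Slfn1, Slfn3 and Slfn9 and the lower grey point of Slfn5 have intervals that include 0.

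The arrays can be paired by replicate number, which goes with Xist, or by the Dap ratio. The median difference of the 6 members tested was 2.95 between the arrays numbered 1 and 4.43 between those numbered 2. Across the Dap pairs it was 4.55 between the arrays of high ratio and 2.84 between those of low ratio. All genes tested had medians of -0.03 to 0.07 in the same pairs. Each pair that contains Smad4-KO replicate 2 thus had the larger value. Without that array the median of the members was 2.89, and without Smad4-KO replicate 1 it was 4.49.

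The Smad4-KO pools were unlike each other in their Schlafen signals. Smad4-KO replicate 2 exceeded replicate 1 in 6 of the 6 members tested, by 3.88-fold for Slfn1, 3.66-fold for Slfn4, 3.30-fold for Slfn8, 2.77-fold for Slfn2, 2.21-fold for Slfn5 and 1.69-fold for Slfn9. Among all genes tested, 46.5% were higher on replicate 2. At least a 2-fold excess was seen in 5 of the 6 members and in 6.59% of all genes tested. The median log2 excess was 1.60 over the members and -0.05 over all genes, whose median absolute difference was 0.42. The order of the members by this excess was that of their genotype difference, from Slfn1 and Slfn4 down to Slfn5 and Slfn9; the 2 quantities share the Smad4-KO arrays. Probe sets outside the fit were mixed. A further Slfn5 probe set shared the excess (502 and 902). The one annotated to both Slfn4 and Slfn3 (366 and 356) and the other Slfn9 probe set (70.1 and 66.5) did not. With 1 array on each side this is a description of those pools.

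Classic type I interferon targets differed between the same pools in the same way. Of 24 such genes tested, 24 read higher on Smad4-KO replicate 2, with a median log2 excess of 1.37, and 18 by at least 2-fold. Ifit1, which binds foreign RNA, read 1883 and 9920 on the Smad4-KO arrays, Rsad2, the antiviral enzyme viperin, 4596 and 20787, and Mx1, an antiviral GTPase, 460 and 1840. Targets that interferon-gamma induces were mixed and had a smaller excess. Their median was 0.10 over 13 genes, 8 of which were higher on replicate 2. Iigp1, a GTPase of that group, read 8105 and 8693 and Igtp, another, 4404 and 3902. Cxcl10, which both interferon types induce, read 582 and 3070, and was the 1 gene of that list with at least a 2-fold excess. Gbp3 (2116 and 4105) and Cxcl9 (1582 and 2603) were higher on replicate 2 by less.

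Marker lists of white blood cells were set beside this excess. The median log2 excess of replicate 2 was 0.37 over 17 macrophage and monocyte markers, 0.04 over 6 neutrophil markers, 0.37 over 9 T cell markers and 0.42 over 5 markers of natural killer cells. It was -0.31 over 6 dendritic cell markers and -2.75 over 4 B cell markers, in which 0 of 4 were higher on replicate 2. The macrophage list was mixed: Fcgr1, an Fc receptor that interferon induces, read 1310 and 4263 and Csf1r, the receptor that macrophages need to survive, 9588 and 22039.8, while Lyz2, a lysozyme, read 21465 and 18586 and Mrc1, the mannose receptor of resident macrophages, 4321 and 1762. The summed signal of that list was 70266 on Smad4-KO replicate 1 and 96746 on replicate 2. The Dap ratio (3.62 and 14.1) and Xist also differed between these arrays, and their part in the excess was not tested. The WT arrays also differed in Dap ratio (10.02 and 2.96) and in Xist. There the array of low ratio was higher by a median of 0.38 over the Schlafen genes. The members were mixed (Slfn4 2.55, Slfn8 0.68, Slfn9 0.55, Slfn5 0.21, Slfn1 -0.27 and Slfn2 -0.46). Over the type I list that array was lower by 0.15 (log2 difference of -0.15). The Dap ratio and Xist cannot be told apart within this pair, and no cause is read from it.

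**Figure D3:**
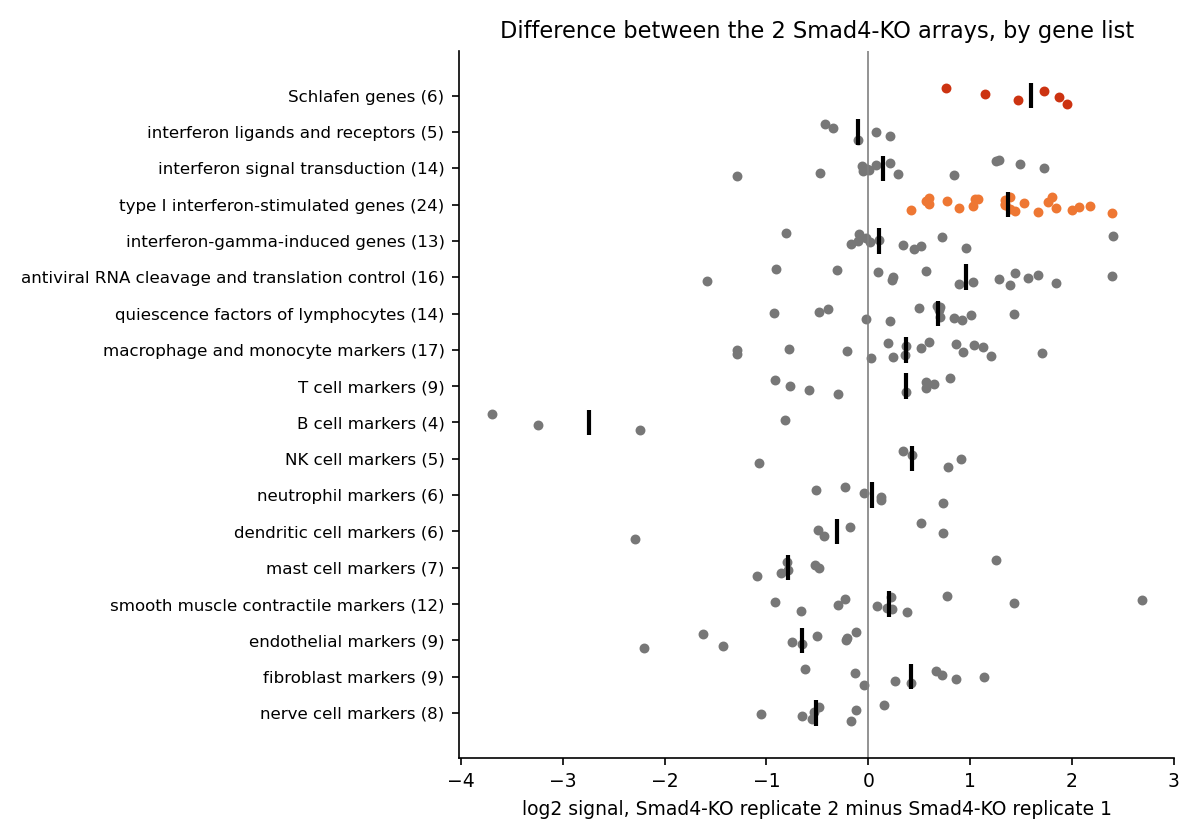
Log2 signal of Smad4-KO replicate 2 minus Smad4-KO replicate 1 for each gene tested (points) with the median of each list (black bar), numbers of genes in brackets. The 6 Schlafen genes (red, median 1.60) and the 24 type I interferon-stimulated genes (orange, median 1.37) all lie to the right of 0, whereas the neutrophil markers (median 0.04) and the interferon-gamma-induced genes (median 0.10) lie on both sides.

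The interferon pathway, in which Schlafen genes are known as targets, was set beside the members in the comparison of genotypes. The ligand genes Ifnb1, Ifna4 and Ifng fell below the filter on signal, and 0 of the 5 receptor chains tested passed in limma (2 at an unadjusted p under 0.05). The receptor subunit Ifnar2 read 1314 and 988 in WT against 1901 and 2201 in Smad4-KO (0.84 ± 0.32), and Il10rb, a chain shared with interleukin receptors, had a difference of 1.16 ± 0.33; the median of the receptors was 0.63. Among 14 signal transducers, 3 rose and 0 fell, with a median of 1.11; 1 rose without Smad4-KO replicate 2, without WT replicate 1 or with median centring, and 0 without WT replicate 2. Irf8, a transcription factor of the myeloid lineage, rose 10.96-fold (3.45 ± 0.36), Usp18, which damps the type I receptor, 7.27-fold (2.86 ± 0.53), and Irf1, a factor of the interferon-gamma response, 3.09-fold (1.63 ± 0.29). Irf7, which amplifies type I interferon, read 290 and 298 in WT against 984 and 2772 in Smad4-KO, differing by 2.49 ± 0.54, which missed the threshold (adjusted p = 0.0611 in limma).

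Of the 24 type I targets, 10 rose and 0 fell, with a median log2 difference of 2.70. Zbp1, a sensor of nucleic acids, rose at least 17.1-fold (4.22 ± 0.62), Mx1 at least 13.3-fold (4.18 ± 0.75), Dhx58, a helper of RNA sensing, at least 10.7-fold (3.94 ± 0.57), and Oasl2, of the oligoadenylate synthetase family, 12.4-fold (3.64 ± 0.43). The WT mean of Dhx58 lay below the cut of the filter on signal, so it passed through its Smad4-KO arrays. Ifit1 (3.98 ± 0.80) and Rsad2 (2.79 ± 0.72) missed the threshold (adjusted p = 0.0516 and adjusted p = 0.0974 in limma). Of 13 interferon-gamma targets, 11 rose and 0 fell, with a median of 2.21. Cxcl9, a chemokine for T cells, rose 9.66-fold (3.27 ± 0.51), Iigp1 5.85-fold (2.55 ± 0.29), Igtp 5.65-fold (2.50 ± 0.30) and Gbp7, a guanylate-binding protein, 4.75-fold (2.25 ± 0.33). The count of type I targets was 18 without Smad4-KO replicate 1, and that of the interferon-gamma targets 5 without Smad4-KO replicate 2 or with each array centred on its median. Without WT replicate 1 each of these lists had 1 call, and without WT replicate 2 it had 0.

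A list of genes that act on RNA and translation, as Schlafen proteins do, and a list of lymphocyte quiescence, the setting in which the family was found, were also counted; the difference between these lists was not tested. Of 16 genes of antiviral RNA cleavage and translation control, 4 rose and 0 fell (median 2.20), and 7 of the 16 are also type I targets. That count was 9 without Smad4-KO replicate 1 and 0 without either WT array. Oas1a, which makes the activator of an antiviral RNase, rose 9.21-fold (3.20 ± 0.51), Oas2 8.42-fold (3.07 ± 0.40) and Ifit3 7.62-fold (2.93 ± 0.55). Of 14 quiescence factors, 0 rose and 0 fell in limma (median -0.25; 1 at an unadjusted p under 0.05). Klf2, a factor that keeps T cells at rest, read 963 and 997 in WT against 939 and 1088 in Smad4-KO, and Tob2, which restrains proliferation, had a difference of -1.11 ± 0.32. The lists were chosen with earlier results of these arrays known, and all genes tested had a median of -0.01.

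Myeloid cells and lymphocytes, in which Schlafen genes are usually expressed, were followed by their markers. Ptprc, the pan-leukocyte gene that encodes CD45, read 820 and 747 in WT against 8667 and 11348 in Smad4-KO. Of 17 macrophage and monocyte markers, 11 rose and 0 fell (median 2.60), among them Mpeg1, a pore-forming protein of phagocytes, 22.6-fold (4.50 ± 0.38), and Ccr2, the chemokine receptor of monocytes, 19.9-fold (4.31 ± 0.43). Their summed signal was 14819 to 20191 in WT against 70266 to 96746 in Smad4-KO. Of 6 neutrophil markers 5 rose (median 4.11), with S100a9, an abundant calcium-binding protein of neutrophils, at 26.0-fold (4.70 ± 0.68) and Csf3r, the receptor for their growth factor, at least 16.1-fold (4.46 ± 0.36). The WT mean of Csf3r lay below the cut of the filter on signal, so it passed through its Smad4-KO arrays. The summed neutrophil signal was 508 to 1676 in WT against 14749 to 18989.6 in Smad4-KO. Without WT replicate 1 the macrophage list had 4 calls and the neutrophil list 4, and without WT replicate 2 both had 0. Whether the Schlafen signals come from these cells was not tested.

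Lymphocyte markers gave fewer calls. Of the called genes named here, Gzmb had a WT mean below the cut of the filter, so it passed through its Smad4-KO arrays. Of 9 T cell markers, 1 rose, Cd3d, a chain of the T cell receptor complex, 5.02-fold (2.33 ± 0.37). The summed T cell signal was 2270 to 3728 in WT against 4447 to 5480 in Smad4-KO. On the Smad4-KO arrays Thy1 alone read 2139 and 3159 of it. Zap70 went the other way, with 1048 and 1035 in WT against 290 and 505 in Smad4-KO (-1.44 ± 0.38). It was not called, and the other 8 markers had both Smad4-KO arrays above both WT arrays. The call of Cd3d was lost without either WT array, without Smad4-KO replicate 1, with median centring and with the filter at the 50th percentile. Among 5 markers of natural killer cells, 2 rose: Gzmb, a cytotoxic protease, at least 3.72-fold and Klrk1, an activating receptor, at least 5.76-fold; 1 was called with signals under 64 raised to 64, and 0 without either WT array. Of 4 B cell markers 0 passed in limma (median 0.93; 0 at an unadjusted p under 0.05); Ms4a1, the CD20 gene, read 180 and 95.2 in WT against 1074 and 113 in Smad4-KO, so its high value was on Smad4-KO replicate 1, where the Schlafen signals were the lower of that genotype. Dendritic cell markers had 2 rises among 6 (1 without either Smad4-KO array or WT replicate 1, 0 without WT replicate 2) and mast cell markers 1 among 7 (0 without Smad4-KO replicate 2 or either WT array). Of 12 contractile genes of smooth muscle 5 fell and 0 rose (median -1.76), while 0 of 9 endothelial and 0 of 9 fibroblast markers passed in limma (1 and 0 at an unadjusted p under 0.05). The count of contractile genes was 0 without either WT array. All 8 nerve cell markers tested rose (median 4.56; 0 were called without WT replicate 2), yet these were lower on Smad4-KO replicate 2 by a median of 0.51 (log2 difference of -0.51), opposite to the Schlafen genes.

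**Figure D4:**
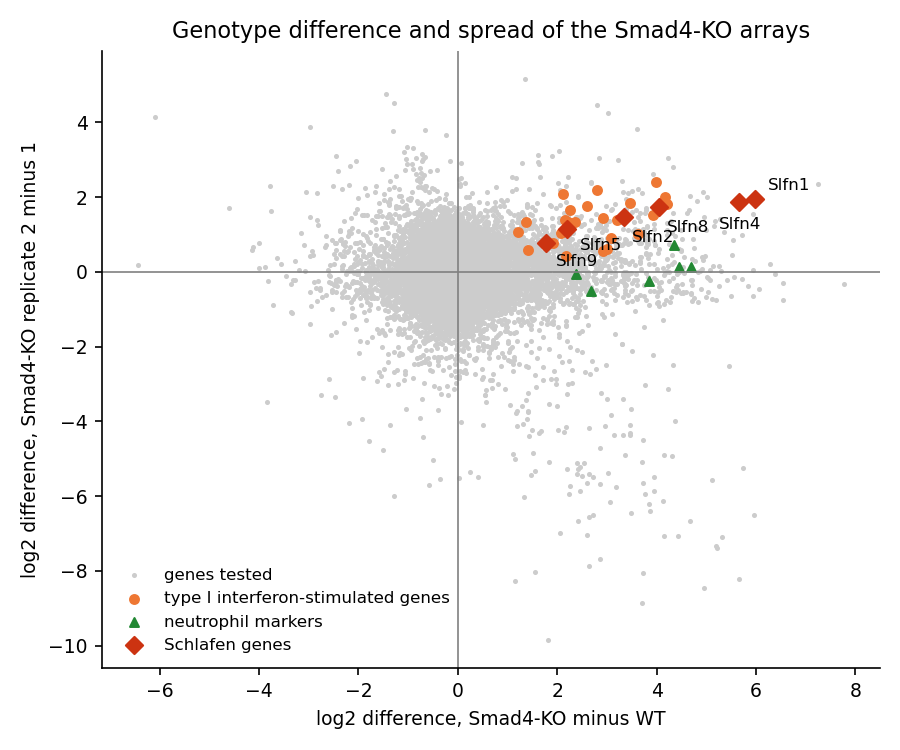
Each gene tested (grey) by its log2 difference between genotypes (horizontal) and its log2 difference between the 2 Smad4-KO arrays (vertical), with Schlafen genes as red diamonds, type I interferon-stimulated genes as orange circles and neutrophil markers as green triangles. The Schlafen genes run from 1.77 and 0.76 (Slfn9) to 5.98 and 1.96 (Slfn1). On the horizontal axis Slfn4 (5.66) and Slfn1 lie beyond every orange point, the furthest of which is Zbp1 (4.22). The 6 neutrophil markers have a median of 0.04 on the vertical axis, the highest of them (S100a8, 0.73) about level with Slfn9.

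Genes on either side of the cluster were measured as neighbours of the Schlafen genes. The neighbouring protein-coding genes analysed here were Rffl, Rad51d, Fndc8, Nle1 and Unc45b before Slfn5, and Ap2b1, Rasl10b, Gas2l2 and 1700020L24Rik after Slfn14. Of these, 6 were bright enough to be tested, and 0 passed in limma. Of all genes tested, 4.92% were called higher and 1.39% lower. The 1 neighbour at an unadjusted p under 0.05 was Nle1, a ribosome assembly factor, at -0.87 ± 0.32. Unc45b, a myosin chaperone that borders the cluster, read 435 and 246 in WT against 738 and 390 in Smad4-KO, so its genotypes overlapped (0.71 ± 0.47). Ap2b1, a clathrin adaptor subunit on the other side, read 1672 and 1791 in WT against 2432 and 2157 in Smad4-KO (0.40 ± 0.29). The absolute differences of the 6 neighbours were all smaller than those of the 6 Schlafen genes tested. Nothing is read from this, since the family was chosen on this contrast. Slfn3, too dim for the fit across genes, had a difference of -0.04. With probe sets averaged, Slfn5 had one of 0.67. Fndc8, Gas2l2 and 1700020L24Rik fell below the filter on signal.

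**Figure D5:**
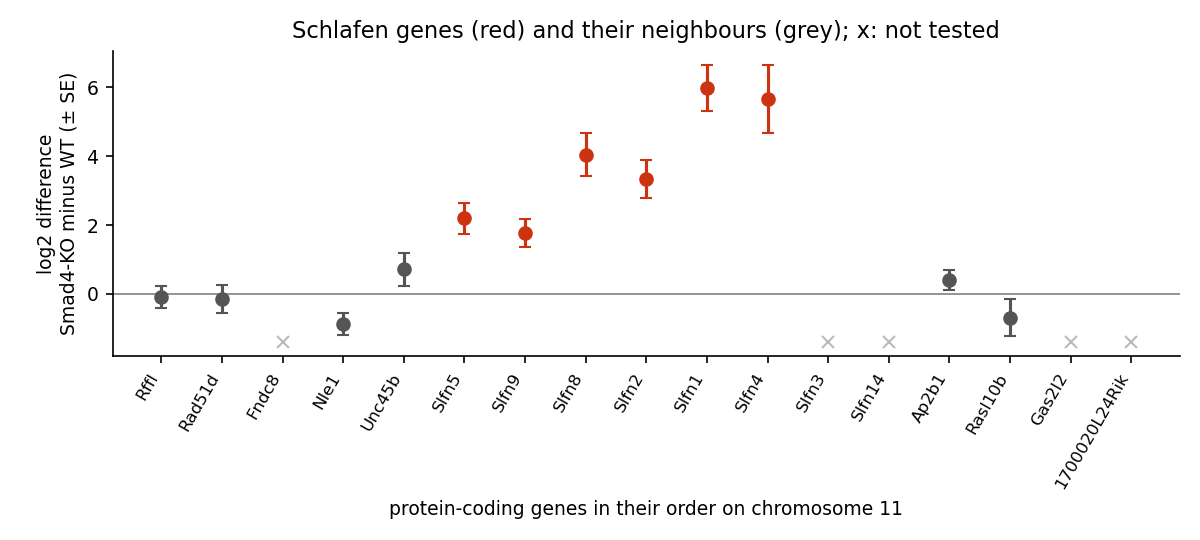
Log2 difference, Smad4-KO minus WT, with its standard error for protein-coding genes in and around the Schlafen cluster, in their order on chromosome 11 (not to distance); red marks Schlafen genes, grey the neighbours, and crosses genes not tested. The red points lie between 1.77 and 5.98 and the grey points between -0.87 and 0.71.

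Within the cluster, the long noncoding RNA gene AI662270 lies between Slfn3 and Slfn14, and its probe set was the nearest of all genes tested to Slfn2 over the 4 arrays. It read 160 and 119 in WT against 843 and 2136 in Smad4-KO, a root mean square distance of 0.055 on the log2 scale after each gene was centred on its own mean. A second AI662270 probe set read 95.2 and 74.8 in WT against 804 and 670 in Smad4-KO, so it was also higher in Smad4-KO but did not repeat the order of the Smad4-KO arrays. The pseudogene Slfn10-ps read 5.10 and 28.9 in WT against 64.1 and 53.1 in Smad4-KO, and Slfn5os, an antisense transcript beside Slfn5, stayed between 1.67 and 5.83 on the 4 arrays.

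The genes nearest to each remaining member differed by member. For Slfn8 they were Dhx58 (distance 0.097), Fcgr1 (0.154) and Mx1 (0.197), each an interferon target or interferon-induced receptor in the lists above. For Slfn5 they were Ms4a8a (0.068), Rnf213, a very large ubiquitin ligase (0.071), and Fgf18, a fibroblast growth factor (0.074). For Slfn4 they were Clec4d, a C-type lectin of myeloid cells (0.373), the cytokine Il6 (0.435) and the neutrophil chemokine Cxcl5 (0.436), and for Slfn1 Chil3, a chitinase-like protein of macrophages (0.501), the Fc receptor Fcgr4 (0.520) and the chemokine Cxcl2 (0.563). Slfn9 was nearest to Tnfrsf9, a costimulatory receptor (0.069), P4ha3, a collagen prolyl hydroxylase (0.088), and Cxcl14 (0.098). Slfn2 had Sap30, a subunit of a histone deacetylase complex (0.060), and Gpr171, a receptor (0.147), after AI662270. Among the members themselves the closest pair was Slfn5 and Slfn9 (0.283) and the next Slfn2 and Slfn8 (0.544), while Slfn8 and Slfn9, whose promoter windows are alike, stood 1.19 apart. With 4 arrays of 2 genotypes, a small distance is shared by many genes that differ between the genotypes by the same amount. Several of the nearest genes were below 64 in WT, as Slfn1 was. Among them were Cxcl5 (6.34 and 46.1), Cxcl2 (27.3 and 32.8) and Gpr171 (37.4 and 34.8). Such distances rest in part on the noisy range.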

How the data were processed

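The deposited table holds probe set intensity on a linear scale for 4 arrays. The tools named in the submitters' processing notes are Affymetrix Expression Console and RMA, without versions. The values lack the form of RMA: they are linear, and their mean after trimming 2% at each end is 500 on every array, the form of MAS5. The sources used here give no detection calls and no genome build.

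Of 45101 probe sets, 34945 outside the controls had exactly 1 symbol. Values were taken to log2, and the probe set with the highest mean log2 signal stood for its gene. Genes below the 25th percentile of that mean (5.64) were left out, which left 13645. The mean was over all 4 arrays, so a gene dim in WT could pass through its Smad4-KO arrays alone. Genotypes were compared with limma 3.58.1 (R 4.3.3; lmFit and eBayes, genotype as the only term, two-sided, Benjamini-Hochberg over all genes tested, threshold 0.05), a procedure tested on simulated data. Nearest genes were ranked by root mean square distance of centred log2 signals. P-values measure the spread between pools. Python 3.11.15 made the tables and figures.

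The members, lists and tests were chosen with earlier results of these data known. Named genes are all members, Smad4, Ptprc, chromosomal neighbours and the 3 nearest genes. Of each list, up to 4 called members with the largest differences are named (or the 2 of lowest p). Klf2, Irf7, Ifit1, Rsad2, Cxcl10, Csf1r, Lyz2, Mrc1, Thy1, Zap70 and the genes of the cluster were added after their values were seen. Alternatives were other normalizations, filters, summaries of probe sets, variance models, blocks, a floor of 64, an adjusted p of 0.10 and leaving out each array.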

Additional observations from a re-analysis of the deposited data

How the results depend on the processing

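Both Smad4-KO arrays lay above both WT arrays for at least 4 Schlafen genes under each other normalization, filter, floor and summary of probe sets. Variance models, blocks and the threshold leave the signals as they are. These settings, and leaving out an array, could not undo that order or change a sign. With 1 value per gene, 0 of the 6 members tested changed the sign of their difference. In the fit of every probe set, 1 further probe set each of Slfn1 (-0.76), Slfn5 (-1.85) and Slfn9 (-0.02) had a difference below 0. So did Slfn3 (-0.04). The median difference of the members was 3.69. It was 1.77 over all 11 probe sets, 3.48 with median centring (which moved the median of all genes to -0.22), 3.08 with the floor of 64, and between 2.89 and 4.49 when an array was left out. The calls depended on the settings. With no filter, with every probe set fitted by itself and with the block of Dap pairs, limma called 0 genes in all (2788, 4090 and 2658 at an unadjusted p under 0.05) and thus 0 Schlafen genes. With the replicate block 1321 genes and 6 Schlafen genes were called, against 861 and 4 without it; the labels do not say that the numbers pair the pools, and deviations correlated at -0.01 between genotypes over all genes, although Xist was high on both arrays numbered 1. An adjusted p of 0.10 gave 1403 genes, and averaging probe sets per gene 518. Leaving out an array gave 0 to 808 genes and 0 to 5 Schlafen genes, with 0 of either without WT replicate 2 (1791 at an unadjusted p under 0.05) and 270 and 1 without WT replicate 1; the genotype left with 1 array is then assumed to vary like the other. The excess of Smad4-KO replicate 2 over replicate 1 was 1.47 to 1.72 over the Schlafen genes and 1.35 to 1.43 over the type I targets under 6 settings chosen after seeing the data. Median centring turned the split of higher against lower calls from 672 and 189 to 453 and 225. The cause of these shifts was not tested. Without detection calls, signals under 64 limit Slfn1 in WT and Slfn3 throughout.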
